A study of Rattus norvegicus with 30 samples.

Results

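The comparison described here sets YSR against YSS, the saline-taking rats that received foot-shocks because they were connected to a methamphetamine (METH) taking rat. The members are all 10 libraries whose titles begin with YSR or YSS, 5 of each, out of 30 RNA-seq libraries in the series, each from the brain of a single rat. All were adult wild type male Sprague Dawley rats. YSR rats took saline and received the shocks of a shock-resistant (SR) partner, and YSS rats took saline and received those of a shock-sensitive (SS) partner. Per the labels, METH rats trained for 21 days and were then exposed to foot-shocks over 8 days, and the yoked rats followed the same schedule on saline. Shocks were tied to active lever presses for METH, which SR rats kept up and SS rats reduced, so that YSR rats stand for more shocks and YSS rats for fewer, both without drug and without any control over the shock. The number of shocks each yoked rat received, and which METH rat it was connected to, were not used here. The other 20 libraries (7 CT rats on saline without shock, 7 SR and 6 SS rats on METH with contingent shock) entered the fit to share the estimate of the spread between rats.

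Unavoidable foot-shock is a stressor in rodents. In the hippocampus, stress is known to act through glucocorticoid and mineralocorticoid receptors, which are transcription factors, and through neuronal activity, which turns on immediate early genes within minutes to hours. In a yoked design the second animal takes the shock without making the response that causes it, which separates exposure to shock from the choice to press for drug. A comparison of YSR with YSS asks whether the amount of shock by itself went along with a difference in mRNA levels.

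Several features limit these groups as a model of shock dose. The tissue field of the labels reads dorsal striatum, whereas the protocol text of the same labels and the methods of the study name the hippocampus. The labels and the abstract of the study place the dissection 2 hours after the last session, and its methods directly after it. The deposited tables identify genes by Ensembl identifiers alone, and 0 of the 32552 identifiers could be paired with a symbol, so that marker genes of hippocampus, striatum, glia and blood vessels, immediate early genes and glucocorticoid-responsive genes were not analysed here and the tissue label was not checked. The libraries come from 2 cohorts, called XII and XIII in the titles, which were unequally split between the groups, with 3 of the 5 YSR libraries and 1 of the 5 YSS libraries from cohort XII. All 5 YSR titles carry the letter R, against 2 R and 3 L among YSS, and the labels do not say what the letters mean. In bulk tissue, fewer cells of a type and less RNA per cell cannot be told apart.

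Depth was alike in the yoked groups, with total counts between 14584340 and 19997820 in YSR (median 17110757) and between 17155083 and 19181886 in YSS (median 17830500). The difference of the means was smaller than the spread between rats (exact two-sided permutation test, p = 0.635, n = 5 per group, adjusted p = 0.921 over 6 library measures). The share of counts on the mitochondrial genome was 8.02% ± 0.706 (SD, n = 5) in YSR and 7.93% ± 0.233 (SD, n = 5) in YSS, with ranges of 7.16 to 8.72% and 7.67 to 8.18%, and did not differ beyond that spread (exact two-sided permutation test, p = 0.794). Within cohort XIII alone the order of both means was the opposite, by 640135 counts and by -0.333 percentage points (YSR minus YSS).

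One YSR library stood apart from its group. On the first principal component of log2 CPM (counts scaled to the library size by TMM, edgeR's trimmed mean of M-values), which held 14.7% of the variance of all 30 libraries, YSR replicate XIII-R08 scored 17.6. The other 4 YSR libraries scored -22.0, -16.1, -11.8 and -11.2. In YSS, XIII-R04 scored -20.1, among those YSR libraries, and the others scored -6.68, -2.42, 0.765 and 7.53. The other 20 libraries covered -21.4 to 23.9, so the score of XIII-R08 was within the range of the series and outside that of its group. Measured gene by gene, the same library was nearer to 4 of the 5 YSS libraries than to any other YSR library. The SD of the log2 CPM difference between a pair of libraries, over 10066 genes with a mean of at least 10 CPM, had a median of 0.244 between XIII-R08 and its 4 group mates and of 0.186 between XIII-R08 and the 5 YSS libraries. Its distance to YSS XIII-R04 was 0.252, the highest of all 45 pairs. The 6 pairs among the other YSR libraries had a median of 0.187, and the 10 YSS pairs one of 0.201. Across all 10 yoked libraries, 20 pairs from the same group (median 0.203, range 0.165 to 0.251) and 25 pairs from different groups (median 0.202, range 0.180 to 0.252) were equally far apart. The label of this library was kept, and the main counts are given below with and without it.

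**Figure D1:**
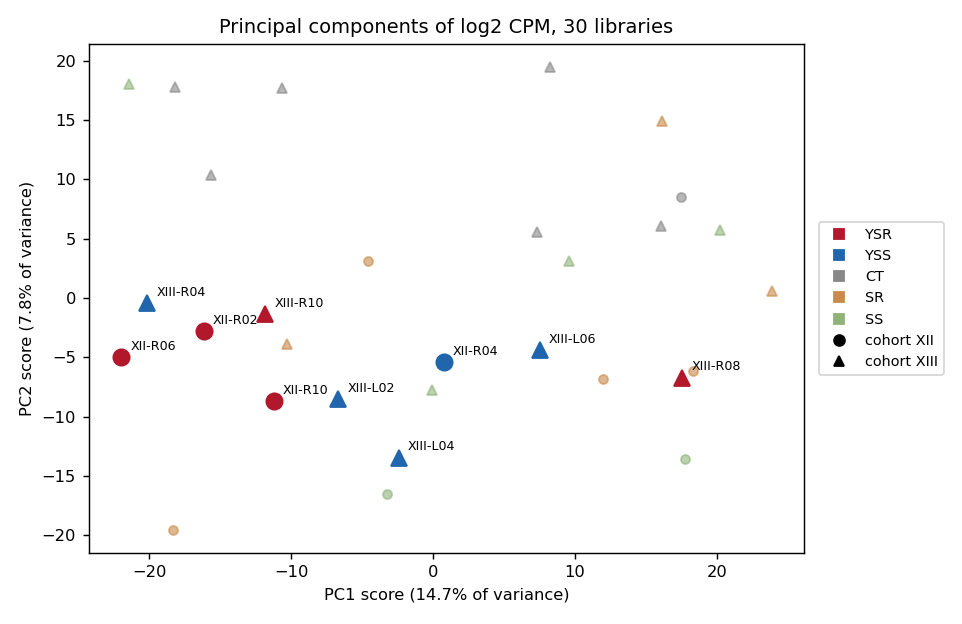
Scores of the 30 libraries on the first 2 principal components of log2 CPM (each axis labelled with its share of the variance), coloured by group, with circles for cohort XII and triangles for cohort XIII. Large red symbols are the 5 YSR libraries and large blue symbols the 5 YSS libraries. Along the first component YSR XIII-R08 lies at 17.6, away from the other 4 YSR libraries at -22.0 to -11.2. YSS XIII-R04 lies at -20.1, away from the other YSS libraries at -6.68 to 7.53.

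On the first component the groups did not differ beyond their spread (YSR minus YSS -4.52, exact two-sided permutation test, n = 5 per group, p = 0.595). That test did not account for the cohort. Within cohort XIII, which holds XIII-R08, the difference was 8.30. In cohort XII the YSR mean was -16.4 and the single YSS library scored 0.765. Without XIII-R08, the 4 remaining YSR libraries differed from YSS by -11.1 score units on average (YSR minus YSS; exact two-sided permutation test over 126 arrangements, p = 0.0873). They still overlapped with YSS, through YSS XIII-R04 at -20.1. Because XIII-R08 was singled out by its score on this same component, the lower p-value is a description and not a test of the groups.

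With edgeR on all 30 libraries, no gene separated YSR from YSS after correction for the number of genes tested. One gene passed with DESeq2 (ENSRNOG00000009227, lower in YSR) and another with edgeR on the 10 yoked libraries alone (ENSRNOG00000018649, higher in YSR), and both are described below. Of 15797 genes that passed edgeR's filter on low counts, 593 (3.75%) reached an unadjusted p-value below 0.05, called nominal here. Of these nominal genes 304 (1.92%) were at higher and 289 (1.83%) at lower levels in YSR. With edgeR's quasi-likelihood test and Benjamini-Hochberg adjustment, 0 genes passed an adjusted p-value of 0.05, and the smallest adjusted p-value was 0.325. The 593 genes are therefore given as a count and not as genes that changed. The study also used a fold change criterion of 1.7, and 81 genes (0.513%) combined it with a nominal p-value, 42 higher (0.266%) and 39 lower (0.247%). Most of these were near the limit of detection, since 53 of the 81 had a mean below 1 CPM in the yoked libraries, 26 had 1 to 10 CPM and 2 had more than 10 CPM.

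**Figure D2:**
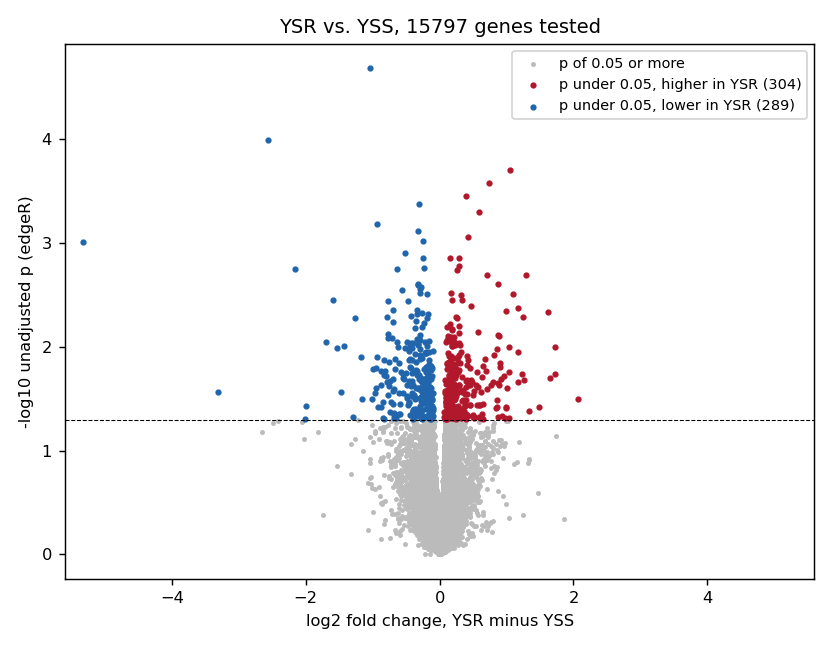
Each point is 1 of the 15797 genes tested, with the log2 fold change of YSR minus YSS on the x axis and -log10 of the unadjusted edgeR p-value on the y axis, and the dashed line marks the nominal threshold. The 304 genes higher (red) and 289 genes lower (blue) in YSR are balanced around 0, and 0 of them passed the adjusted threshold.

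In 126 genes (0.798% of those tested) every YSR library was on one side of every YSS library, 74 higher (0.468%) and 52 lower (0.329%) in YSR. Of these, 78 were also among the 593. In the other 515 of the 593, at least 1 YSR rat and 1 YSS rat overlapped. Without YSR XIII-R08, with 1 library fewer to separate, 345 genes (2.17%) did not overlap, 179 higher and 166 lower, and 180 of them were nominal. Among highly expressed transcripts, above 100 CPM, 8 genes were both nominal and did not overlap between groups, out of 2229 (0.359%, beside 0.494% of all genes tested), and their log2 fold changes were 0.07 to 0.19 in size. The median log2 fold change over all 593 genes was 0.27 in size.

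The size of difference that these 10 rats leave room for depends on the level of the transcript. The log2 fold changes had a median of 0.00, and the middle 80% of genes lay between -0.17 and 0.15. The median standard error was 0.10, which gives a 95% interval of 0.19 to either side on the log2 scale. That interval, taken gene by gene without adjustment, lay within 1.5-fold in both directions for 12512 genes (79.2%) and within 2-fold for 14502 genes (91.8%). Without YSR XIII-R08 these shares were 75.3% and 89.1%. Abundant transcripts were measured far more tightly than rare ones. Among 2229 genes above 100 CPM, the interval was within 1.5-fold for 99.6%, and among 7837 genes at 10 to 100 CPM for 98.2%. It was within 1.5-fold for 61.2% of 4237 genes at 1 to 10 CPM, and for 0.469% of 1494 genes below 1 CPM, of which 38.3% lay within 2-fold. The share of nominal genes fell along the same order, from 4.75% below 1 CPM to 4.39%, 3.64% and 2.29% above 100 CPM. A difference in a rare transcript was thus often not detectable at this depth and number of rats. For nearly all transcripts above 10 CPM the unadjusted interval lay within 1.5-fold, given a spread estimated from all 30 libraries and not from the yoked rats alone.

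Grouped by where they lie, the nominal genes were spread over the genome. Among chromosomes 1 to 20 and X they made up between 2.75% of the genes tested (chromosome 14) and 5.59% (chromosome 6, 25 higher and 15 lower of 715), beside 3.75% over all genes. The median log2 fold change of a chromosome lay between -0.01 and 0.01. Of the 593 genes, 231 (39.0%) had another such gene within 500 kb, against 35.7% of the genes not among them, and the nearest one pointed the same way for 125 and the opposite way for 106. Without YSR XIII-R08 the shares ran from 4.96% (chromosome 4) to 7.64% (chromosome 6), beside 6.12% over all genes, and 49.5% of nominal genes had another within 500 kb, against 48.4% of the rest. The genome build behind the coordinates is not given in the sources used here.

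The mitochondrial genome encodes subunits of the respiratory chain together with the ribosomal and transfer RNAs that translate them, and its transcripts are among the most abundant in brain tissue. Of its 29 genes tested, 0 were nominal in edgeR's test, beside 3.75% of all genes tested, a share that amounts to about 1 gene in 29. The 13 genes of at least 200 bases had log2 fold changes between -0.07 and 0.05, and their 95% intervals reached from -0.29 to 0.31 at the widest. The 16 shorter genes lay between -0.56 and 0.21. Without YSR XIII-R08 the median of the 29 genes was -0.05, and again 0 of them were nominal, beside 6.12% of all genes.

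Long genes in the brain include many that encode synaptic adhesion molecules and ion channels. Of 68 genes tested that span more than 600 kb, 0 were higher and 1 was lower in YSR (1.47%). The share was 2.70% of 1923 genes of 100 to 600 kb (33 higher, 19 lower), 3.80% of 8680 genes of 10 to 100 kb (168 higher, 162 lower) and 4.10% of 5126 genes under 10 kb (103 higher, 107 lower). The order of the shares turned with 1 library. Without YSR XIII-R08, 7 of the 68 longest genes were higher and 1 was lower (11.8%, beside 6.12% over all genes), with a median log2 fold change of 0.07, and the 3 shorter classes held 5.92 to 6.14%. Genes with a single exon (1033 genes, 3.97%) and with several exons (14764 genes, 3.74%) had like shares.

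At the level of single genes, 2 that were higher and 2 that were lower in YSR are described below, those with the smallest p-values in each direction among genes with a mean of at least 1 CPM. With edgeR's quasi-likelihood test on all 30 libraries none of the 4 passed the adjusted threshold, while 1 passed with DESeq2 and 1 in the 10 yoked libraries alone, as given below, and what they encode is not given here, since the identifiers were not paired with symbols.

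ENSRNOG00000009227, a gene with a single exon of 3645 bases on the plus strand of chromosome 3 (72540538 to 72544182), had the smallest p-value of all. Its CPM were 2.44 and 0.998 in the YSR rats of cohort XIII (XIII-R08 and XIII-R10) and 2.03, 2.76 and 1.89 in those of cohort XII (XII-R02, XII-R06 and XII-R10). In YSS they were 3.89, 4.09, 3.67 and 4.26 in cohort XIII (XIII-L02, XIII-L04, XIII-L06 and XIII-R04) and 3.61 in cohort XII (XII-R04). All 5 YSR rats lay below all 5 YSS rats, including the library that stood apart on the first component. The means were 2.02 ± 0.667 CPM (SD, n = 5) in YSR and 3.90 ± 0.277 (SD, n = 5) in YSS, a log2 fold change of -1.04 (standard error 0.21, adjusted p = 0.325 with edgeR's quasi-likelihood test). It was lower in YSR within cohort XIII (-1.23) and within cohort XII (-0.70). DESeq2's Wald test gave -1.05 and an adjusted p-value of 0.00744, the only gene that passed with that tool. These values rest on 20 to 75 counts per library. Unshocked CT rats had 3.17 to 4.85 CPM, which covers the YSS rats and leaves out the YSR rats. In METH rats the range was 1.82 to 3.94 CPM in SR and 2.57 to 4.69 in SS, with a log2 difference of -0.46 (SR minus SS, adjusted p = 0.628 in edgeR's test). The difference between the yoked and the METH contrast did not pass adjustment (edgeR interaction, adjusted p = 0.793).

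ENSRNOG00000018649 was the most abundant of the 4. It has 11 exons with 2077 bases on the minus strand of chromosome 3 (161801197 to 161812291) and lies wholly inside another annotated gene of that strand (161575631 to 161917285). YSR rats had 51.5 and 45.5 CPM in cohort XIII and 47.4, 55.3 and 44.2 in cohort XII, in the order of replicates given above. YSS rats had 27.7, 32.6, 27.6 and 26.4 CPM in cohort XIII and 26.5 in cohort XII. The groups did not overlap, and the lowest YSR rat was 11.6 CPM above the highest YSS rat. Means were 48.8 ± 4.59 CPM (SD, n = 5) and 28.1 ± 2.55 (SD, n = 5), from 464 to 923 counts per library. In the fit of all 30 libraries YSR minus YSS was 0.73 on the log2 scale (standard error 0.18, adjusted p = 0.9996 with edgeR's quasi-likelihood test), and in the fit of the 10 yoked libraries alone it was 0.80 (standard error 0.08, adjusted p = 0.00349), the only gene to pass there (0.0066% of those tested). Leaving out 1 yoked library at a time from the latter fit, the gene stayed under an adjusted p of 0.05 in 8 of 10 fits, and was at 0.0625 without YSR XIII-R08 and 0.0564 without YSS XII-R04. All 5 YSR titles carry the letter R. With the letter as a further covariate in the fit of all 30 libraries, the log2 difference was 0.61 (adjusted p = 0.9999 with edgeR's quasi-likelihood test).

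The other groups spread widely at this gene. CT rats had 26.2 to 48.2 CPM, SR rats 24.7 to 47.0 and SS rats 25.7 to 50.8, each range holding levels like those of both yoked groups. Of those 20 libraries, 4 were at or above the lowest YSR rat and 12 at or below the highest YSS rat. Over all 30 libraries the widest gap between neighbouring levels lay from 35.3 to 40.7 CPM, with 20 libraries below and 10 above it. The enclosing gene had 24.6 CPM in YSR and 25.5 in YSS (log2 fold change -0.03), and how the authors' counting shared reads between both genes was not tested. In METH rats the difference was -0.22 (SR minus SS, adjusted p = 0.839 in edgeR's test), and the interaction of 0.96 (standard error 0.23) had an adjusted p of 0.466.

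ENSRNOG00000012886, with 3 exons and 1941 bases on the plus strand of chromosome 7 (120580743 to 120592095), had the smallest p-value among genes higher in YSR. It was a rare transcript in these libraries, with 8 to 31 counts each. YSR rats had 1.61 and 1.45 CPM in cohort XIII and 1.65, 0.96 and 1.47 in cohort XII, and YSS rats 0.64, 0.45, 0.86 and 1.02 in cohort XIII and 0.52 in cohort XII. The groups overlapped, since YSR XII-R06 lay below YSS XIII-R04. The log2 fold change was 1.06 (standard error 0.25, 95% interval 0.55 to 1.56, adjusted p = 0.9996 with edgeR's quasi-likelihood test), with means of 1.43 ± 0.276 and 0.701 ± 0.238 CPM (SD, n = 5 each). CT rats had 0.68 to 1.20 CPM, SR rats 1.06 to 1.79 and SS rats 0.64 to 1.44. The SR minus SS difference was 0.51 (adjusted p = 0.682 in edgeR's test), and the interaction of 0.55 (standard error 0.32) had an adjusted p of 0.859.

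ENSRNOG00000058276, a short gene of 315 bases in 2 exons on the plus strand of chromosome 19 (26416818 to 26417597), had the largest fold change of the 4. In YSR it was low and even, at 0.54 and 0.55 CPM in cohort XIII and 0.37, 0.60 and 0.56 in cohort XII. In YSS it was uneven, at 0.75, 0.97, 3.83 and 3.64 CPM in cohort XIII and 2.46 in cohort XII. The groups did not overlap, although 2 of the 5 YSS rats came close to YSR. On the log2 scale YSR minus YSS was -2.56 (standard error 0.57, adjusted p = 0.805 with edgeR's quasi-likelihood test), with means of 0.523 ± 0.0872 in YSR and 2.33 ± 1.44 in YSS (SD, n = 5 each), from 7 to 71 counts per library. The value of -2.56 was fitted with the cohort term, which the plain means leave out. The log2 difference was smaller in size without that term (-2.15), within cohort XII (-2.27), within cohort XIII (-2.08) and in the 10 yoked libraries alone (-2.16). Single rats of the other groups also spread, with 0.16 to 3.09 CPM in CT, 0.66 to 2.86 in SR and 0.33 to 2.46 in SS. The SR minus SS difference was 0.69 (adjusted p = 0.836 in edgeR's test), and the interaction of -3.25 (standard error 0.74) had an adjusted p of 0.449.

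**Figure D3:**
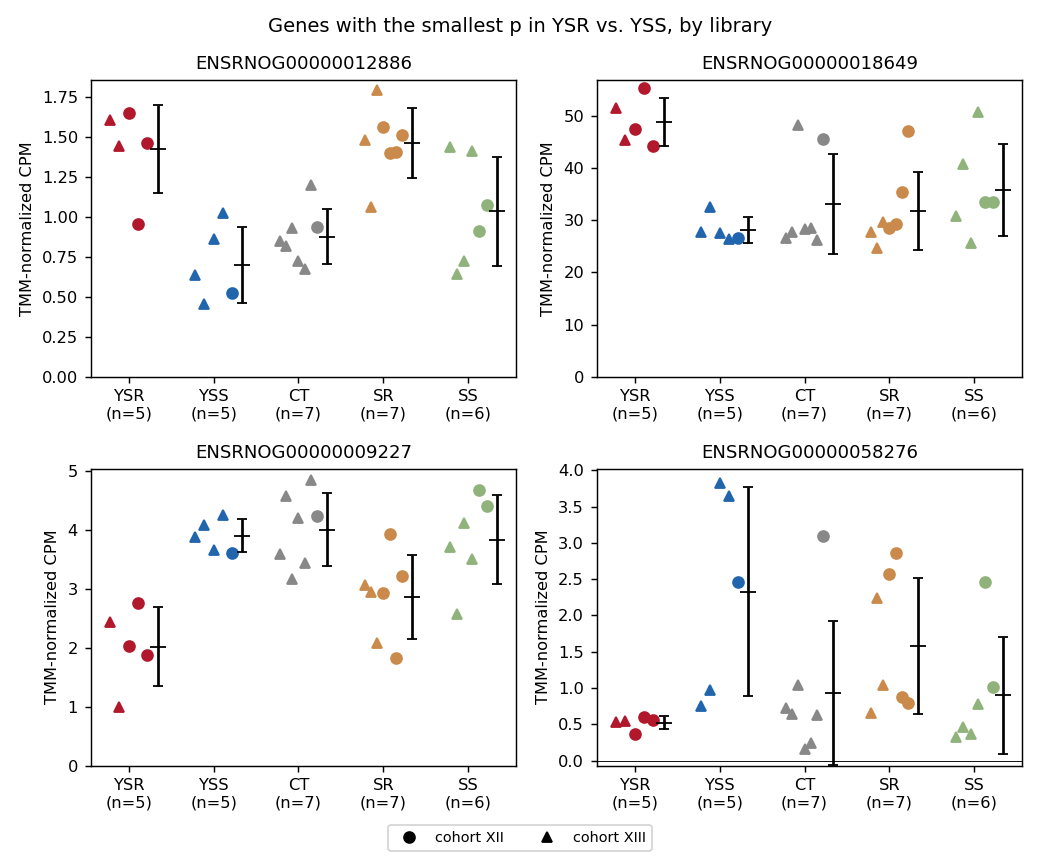
TMM-normalized CPM of the 4 genes in each library of the 5 groups, with circles for cohort XII, triangles for cohort XIII, and bars for the mean and SD of a group. YSR and YSS do not overlap in 3 panels and overlap in that of ENSRNOG00000012886, and in the panel of ENSRNOG00000018649 the CT, SR and SS libraries spread over both yoked levels (24.7 to 50.8 CPM).

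The contrast was then taken within each cohort, where the libraries are disjoint. Cohort XIII held 2 YSR and 4 YSS libraries, where 644 of 16132 genes (3.99%) were nominal in edgeR's test and 0 passed after adjustment. Cohort XII held 3 YSR libraries and 1 YSS library, where 487 of 16266 genes (2.99%) were nominal and 2 passed after adjustment. In that fit the single YSS library is assumed to vary like the other groups. Over 15939 genes tested in both, 7462 (46.8%) had the same sign in both cohorts. Among nominal genes, 303 of 637 (47.6%) from cohort XIII had the same sign in cohort XII, and 205 of 473 (43.3%) from cohort XII had the same sign in cohort XIII. Only 26 genes were in both sets, and 11 of them had the same sign. Limiting the count to genes of at least 10 CPM gave 4621 of 10147 (45.5%). Cohort XIII rests heavily on YSR XIII-R08, 1 of its 2 YSR libraries. With XIII-R10 as the only YSR library there, assumed to vary like the other groups, 1183 of 16586 genes (7.13%) were nominal, 2 of them after adjustment, and 540 of 1161 of the nominal genes tested in both cohorts (46.5%) had the same sign in cohort XII, beside 7992 of all 16089 (49.7%). The 4 genes described above had the same sign in both cohorts, but were chosen on these libraries together.

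Counts of genes also depended on which libraries entered. Without YSR XIII-R08, 973 of 15905 genes (6.12%) were nominal, 445 of them higher and 528 lower in YSR, 140 were nominal and at least 1.7-fold, and 0 passed after adjustment (smallest adjusted p = 0.161 in edgeR's test). Of the 593 genes from all libraries, 458 (77.2%) were among those 973, of which they made up 47.1%. In the fit of the 10 yoked libraries alone, 542 of 15145 genes (3.58%) were nominal, and 311 of them were shared with the 593 (57.4% and 52.4% of each list).

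The METH rats of the series offer a comparison along the same axis. Which of them, if any, drew the shocks of these yoked rats was not used here. SR and SS rats differ in the shocks received, as YSR and YSS do, and in addition in METH taking under punishment. To keep the libraries apart, YSR minus YSS was fitted on the 10 yoked libraries and SR minus SS on the 13 METH libraries, with 651 of 15168 genes (4.29%) nominal in the latter. Over 15024 genes tested in both fits, 7443 (49.5%) had the same sign. Of the 537 genes nominal in yoked rats, 290 (54.0%) had the same sign in METH rats, and 39 were in the METH set as well (7.26% of the yoked and 6.05% of the METH set), 28 of them with the same sign. The genes higher in YSR had a median log2 difference of 0.006 between SR and SS, and those lower in YSR one of -0.006. The small excess of the same sign was not kept without YSR XIII-R08, where 916 of 15256 genes (6%) were nominal in the 9 yoked libraries and 403 of 907 of them (44.4%) had the same sign in METH rats, beside 47.2% of all genes. In the fit of all 30 libraries, the difference between both contrasts was nominal for 977 genes (6.18%) and passed adjustment for 0 (edgeR's quasi-likelihood test).

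**Figure D4:**
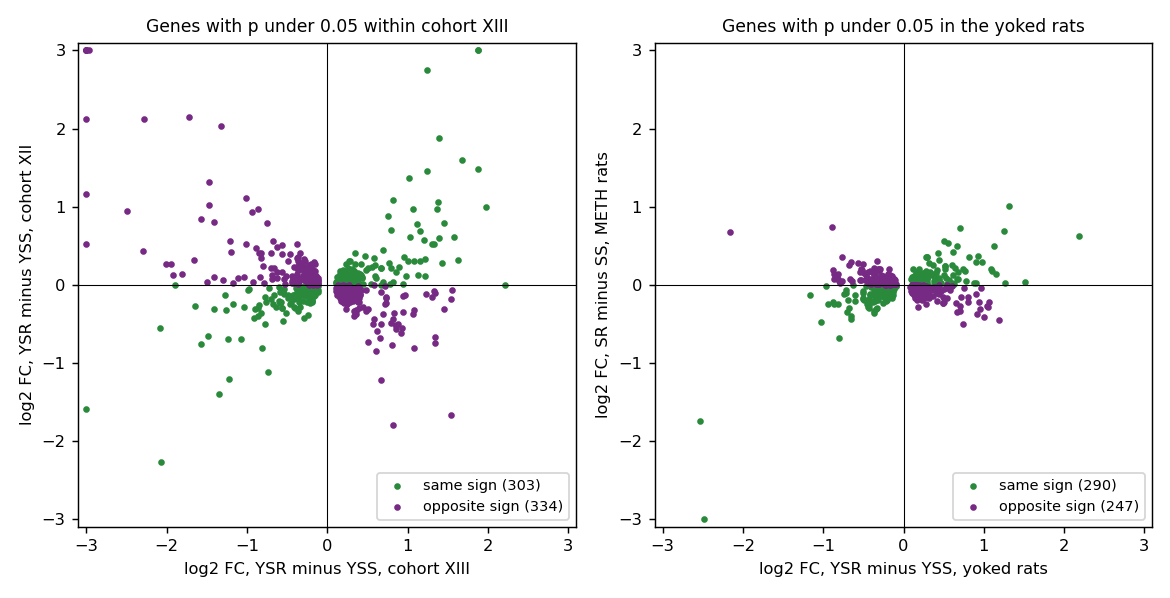
The left panel plots, for the 637 genes nominal within cohort XIII, the log2 fold change (YSR minus YSS) in cohort XIII on the x axis against that in cohort XII on the y axis, and the right panel plots, for the 537 such genes of the yoked libraries, YSR minus YSS against SR minus SS of the METH libraries. Green points have the same sign (303 and 290) and purple points the opposite sign (334 and 247), and values beyond 3 are drawn at 3.

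Rats without shock give the position of both yoked groups. For 486 of the 593 genes the CT level lay between YSR and YSS, for 36 it lay beyond YSR and for 71 beyond YSS. CT was closer to YSR for 245 of them and closer to YSS for 348. Over all genes tested these numbers were 5331, 4914 and 5552, with CT closer to YSR for 7460 and to YSS for 8337. Without YSR XIII-R08, CT lay between both groups for 793 of 973 nominal genes, beyond YSR for 23 and beyond YSS for 157, and was closer to YSR for 268 and to YSS for 705. As the 593 genes were chosen for a difference between YSR and YSS, a CT level between both is the usual case for them, and the counts are given as a description.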

How the data were processed

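RNA from 30 rats was sequenced as poly(A)-selected, paired-end libraries. Per the labels, the authors used bcl2fastq 2.17, Trimmomatic 0.36, STAR 2.5.2b and featureCounts of Subread 1.5.2, and deposited raw read counts per Ensembl gene for each rat, without normalization. The genome build, annotation and use of strand are not given in the sources used here, so that overlapping genes may share reads. Depth was 14584340 to 19997820 counts per yoked library. Of 32552 genes, 6750 had no count in any library.

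Groups and cohorts were taken from the sample titles. Differences were tested with edgeR 4.0.16 (R 4.3.3): quasi-likelihood F-test on the deposited counts of all 30 libraries, group and cohort as terms, TMM normalization, filterByExpr, contrast YSR minus YSS, Benjamini-Hochberg adjustment over 15797 genes. CPM are TMM-normalized, and log2 CPM for principal components used a prior count of 2. Intervals cover 95%. Single values per library were compared by exact permutation tests. The labels give no source of separate litters, and p-values measure the spread between these rats. Scripts were tested on simulated data. Alternatives were DESeq2 1.42.0, median-ratio factors, 2 other count filters, no cohort term, the letter L or R as a covariate, the 10 yoked libraries alone, cohort XIII alone, other fold criteria, and each yoked library left out. Yoked libraries without a cohort term, cohort XII alone single libraries left out of the yoked fit and descriptive counts without YSR XIII-R08 were added after seeing the data.

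The members, tests and gene lists were chosen with earlier results of these data known. Genes were named by rule: at least 1 CPM on average and the smallest p-values, with 2 identifiers per direction where no symbols could be matched (0 of 32552 matched the 47357 genes of the RefSeq table). The planned lists (stress, activity and cell type marker genes) were not analysed here for the same reason. Principal components, gene classes by position and span, CT positions and METH contrasts are descriptions chosen after the data were seen.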

Additional observations from a re-analysis of the deposited data

Results flagged for a closer look

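In 20 sets of values (library measures and the 4 genes, within YSR and within YSS), the highest and lowest of the 5 rats were compared with the rest by Dixon's test at 95%, and 3 sets had a rat that stood apart, where chance gives about 1. YSR replicate XIII-R08 scored 17.6 on the first principal component, against -22.0 to -11.2 in the other 4 YSR rats. For ENSRNOG00000058276, YSR replicate XII-R02 was low, at 0.373 CPM against 0.54 to 0.60 in the other YSR rats. For ENSRNOG00000018649, YSS replicate XIII-L04 was high, at 32.6 CPM against 26.4 to 27.7 in the other YSS rats, and was still below every YSR rat.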

How the results depend on the processing

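With edgeR's quasi-likelihood test on all 30 libraries, 0 genes passed adjustment between YSR and YSS, also with any 1 yoked library left out (0 to 0), and 593 had an unadjusted p-value under 0.05. The adjusted count was 1 with DESeq2 and 1 in the 10 yoked libraries alone, with or without a cohort term. With a library left out of the yoked fit with the cohort term it was 0 to 1. Without YSS XII-R04 the 1 gene was a gene other than ENSRNOG00000018649, which had an adjusted p of 0.0564 in edgeR's test. At the unadjusted threshold, leaving out 1 library gave 470 to 973 genes (208 to 445 higher, 247 to 528 lower), the highest number without YSR XIII-R08 and 705 the next highest. Keeping all genes with at least 1 count gave 978 (530 lower). Median-ratio factors gave 597 (285 higher, 312 lower). The 81 genes of at least 1.7-fold became 52 in the 10 yoked libraries, 41 there without a cohort term, 145 in cohort XIII, 172 in cohort XII, 495 with all genes of at least 1 count and 13 when each library had to hold 10 counts or more. The list had 123 genes at 1.5-fold, 37 at 2-fold and 86 to 140 with a library left out (140 without YSR XIII-R08). YSR minus YSS of the total count was 640135 in cohort XIII and -1162510 to 190864 with a library left out, and that of the mitochondrial share was -0.333 percentage points in cohort XIII and -0.0888 to 0.300 with a library left out. Cohort and single rats cannot be told apart in these shifts. No paired analysis was made, since each yoked rat was connected to a METH rat and not to a rat of the other yoked group. Of the genes below 1 CPM, 38.3% had a 95% interval within 2-fold.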
